A study of Mus musculus with 6 samples.

Results

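Sterol and fatty acid synthesis genes were followed in macrophages from the epididymal fat of obese and lean mice. The set had 35 genes, chosen by name: 19 enzymes of the sterol branch, 10 enzymes of the fatty acid branch, and 6 genes that control these branches or carry cholesterol. For each gene the array row with the highest mean over the 6 arrays was used, including rows that carry several gene symbols. A row was found for 34 of the 35, among 30146 genes tested; Acat2, an acetyl-CoA thiolase, was not analysed here. The 34 were 18 sterol enzymes, 10 fatty acid enzymes and the 6 control and transport genes.

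The high-fat diet group (HFD) was male C57BL/6J mice fed a diet of 60% fat (Research Diets D12492) for 16 weeks, and the normal chow group (NCD) was male C57BL/6J mice fed Envigo Teklad 8904 for the same time. Feeding began at 6 weeks of age, and the cells were taken at 22 weeks. Cells of the stromal vascular fraction, the non-adipocyte cells freed from fat by collagenase, were bound by an antibody to F4/80, the surface antigen that Adgre1 encodes, and held on magnets. Each HFD sample pooled 10 mice and each NCD sample 20 mice, there were 3 pools per diet (HFD1 to HFD3 and NCD1 to NCD3), and each pool gave 1 array. The pool was therefore the unit of replication, and nothing here measures how single mice varied.

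Cells make cholesterol from acetyl-CoA through mevalonate, farnesyl diphosphate, squalene and lanosterol. When sterols in the endoplasmic reticulum run low, the escort protein SCAP carries the membrane-bound factors SREBP-1 and SREBP-2 to the Golgi, where they are cut and released to the nucleus, while INSIG proteins hold SCAP back when sterols are plentiful. SREBP-2 is best known for driving sterol enzymes and SREBP-1c for driving fatty acid enzymes, and in macrophages the liver X receptors, which sense oxysterols, also raise Srebf1 and genes of fatty acid desaturation.

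Promoter sequence from RefSeq (build GRCm38.p6) was at hand for 27 of the 34 genes, as windows of 250 bases before to 50 bases after an annotated start. Windows were searched on both strands for TCACNCCAC, a common form of the sterol regulatory element that SREBPs bind, and for CCAAT, the box of NF-Y, a frequent partner of SREBPs. The stretches below are the 200 bases before the start of Hmgcs1 and Cyp51, the sterol genes with the largest changes, and of Fasn, the fatty acid synthase gene, which was not called. Capitals mark both motifs in either orientation, so that CCAAT on the other strand reads ATTGG.
Hmgcs1, plus strand, chr13:119690151-119690350: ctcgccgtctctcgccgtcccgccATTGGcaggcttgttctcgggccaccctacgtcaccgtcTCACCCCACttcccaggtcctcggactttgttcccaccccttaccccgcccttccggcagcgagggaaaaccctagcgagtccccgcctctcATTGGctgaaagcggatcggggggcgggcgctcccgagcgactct
Cyp51, minus strand, chr5:4104698-4104897: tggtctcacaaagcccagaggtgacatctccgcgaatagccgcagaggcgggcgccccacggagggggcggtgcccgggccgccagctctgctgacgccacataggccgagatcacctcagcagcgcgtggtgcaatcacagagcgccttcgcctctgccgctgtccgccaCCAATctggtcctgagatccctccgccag
Fasn, minus strand, chr11:120824548-120824747: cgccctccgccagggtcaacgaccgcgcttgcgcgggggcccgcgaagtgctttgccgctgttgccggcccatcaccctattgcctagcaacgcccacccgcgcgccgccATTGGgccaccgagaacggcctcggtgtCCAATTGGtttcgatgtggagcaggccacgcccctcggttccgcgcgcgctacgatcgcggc
In Hmgcs1 the TCACNCCAC match lay 137 bases before the start, between CCAAT boxes at 176 and 45 bases before it. In Cyp51 the CCAAT box began 29 bases before the start, and in Fasn the boxes began 90, 62 and 59 bases before it, the last 2 overlapping on opposite strands.

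A TCACNCCAC match was present in 1 of the 9 sterol genes called higher that had a window (Hmgcs1), in 0 of the 6 sterol genes not called and in 0 of 7 fatty acid genes, against 1.24% of all 32851 windows. A CCAAT box was present in 9 of those 9, 6 of those 6 and 4 of those 7 genes (Acly, Acss2, Fasn and Me1), against 37.4% of all windows. A gene with several windows counted once, if any of them matched. The percentages of all windows count single windows instead, so a gene with several windows had more chances to match. The gene counts and those percentages are therefore not like for like. CCAAT boxes were thus found in all sterol genes with a window, whether or not they were called. Other forms of the sterol regulatory element were not searched for, so a gene with no TCACNCCAC match may still hold such an element. These matches describe letters in the windows and do not show binding.

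Macrophage markers were high on all arrays but not equal between the diets. Of 8 measured, 2 were called higher, 1 lower and 5 were not called, and their mean log2 level was 15.10 to 15.28 over the HFD arrays and 14.36 to 15.10 over the NCD arrays, lowest on NCD3. Lyz2, the lysozyme gene, averaged 18.77 ± 0.03 in HFD and 18.84 ± 0.14 in NCD arrays, and Itgam, the integrin CD11b, 16.32 ± 0.06 in HFD and 16.31 ± 0.57 in NCD arrays (SD, n = 3 each). Cd68, a lysosomal glycoprotein, averaged 17.38 ± 0.13 in HFD and 16.18 ± 0.44 in NCD arrays and was called higher (2.30-fold, adjusted p = 0.0266). The other calls were Fcgr1, an Fc receptor (2.69-fold higher, adjusted p = 0.0150), and Mertk, a receptor for dying cells (−0.49, adjusted p = 0.0388). Adgre1, the gene of the antigen used for selection, had 16.54, 16.55 and 16.70 on the HFD arrays and 16.08, 15.93 and 15.05 on the NCD arrays, without overlap, and was not called (0.91 ± 0.27, adjusted p = 0.0924). The part of these markers in the sterol values was not tested.

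Markers of other cells were measured too, and they ran in both directions. Of 8 fibroblast and progenitor markers 4 were called higher and 0 lower: Lum rose 5.86-fold (adjusted p = 0.00522), Col1a1 3.87-fold (adjusted p = 0.00910), Col3a1 3.80-fold (adjusted p = 0.0150) and Col1a2 2.66-fold (adjusted p = 0.0219), all genes of the extracellular matrix. The mean level of that list was 9.16 to 9.80 over the HFD arrays, highest on HFD1, and 8.78 to 9.12 over the NCD arrays. That mean narrowly parted the diets in the same direction as the sterol genes, but the other 4 markers lay below 0 and were not called. They were Dcn, the decorin gene (−0.88, adjusted p = 0.126), and Pdgfrb, a receptor also found on pericytes (−1.55, adjusted p = 0.202). The others were Dpp4 (−1.42, adjusted p = 0.111), with all HFD arrays below all NCD arrays, and Pi16 (−0.10, adjusted p = 0.797). The part of these cells in the sterol values was not tested. The mean log2 level of 11 endothelial markers was 10.82 to 12.40 over the HFD arrays and 11.90 to 14.43 over the NCD arrays. HFD1 was the highest HFD array and NCD1 the lowest NCD array, and 0 of the 11 had a mean below background. All 11 changes lay below 0, with a median of −1.92, and 0 were called. All 6 smooth muscle and all 6 mesothelial markers were called lower in HFD arrays, with median changes of −4.42 and −2.09. Of the mesothelial markers 3 had a mean below background. The 14 adipocyte markers had a mean level of 8.37 to 9.13 over the HFD arrays, lowest on HFD1, and of 8.83 to 9.74 over the NCD arrays, and 0 of them were called. In pools of cells, fewer cells of a type and less RNA per cell cannot be told apart.

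Most enzymes of the sterol branch were higher in HFD macrophages, while in the fatty acid branch the call was passed by Fads1 alone. Of 18 sterol enzymes 12 rose, 0 fell and 6 were not called, with a median change of 0.84 log2 HFD minus NCD. Of 10 fatty acid enzymes 1 rose, 0 fell and 9 were not called, with a median of −0.37. Over all 30146 genes 7.83% were called, 4.96% as higher and 2.87% as lower, and the median change was 0.01. Under median centring 8.55% were called higher and 2.30% lower (2576 and 692 genes, against 1495 and 865 in the values as deposited). Among the 15751 genes with a mean at or above the background level, which all 34 described here had, 11.9% were called higher and 6.48% lower. The sterol count was 12 of 18 in both of those fits. Calls are limma's test at a Benjamini-Hochberg adjusted p below 0.05, adjusted over all genes tested. All 34 genes lay above the background level of 6.23 on all 6 arrays; the lowest value among them was 6.51.

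The count of sterol enzymes called moved with single arrays. It was 9 without HFD1 or NCD3, 12 without NCD1, 5 without NCD2, and 4 without HFD2 or HFD3, and each of these was among the 12, while the branch median stayed between 0.79 and 0.92. Those counts compare with 1020, 1791, 4716, 474, 442 and 456 genes called in the whole table without HFD1, NCD3, NCD1, NCD2, HFD2 and HFD3.

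**Figure D1:**
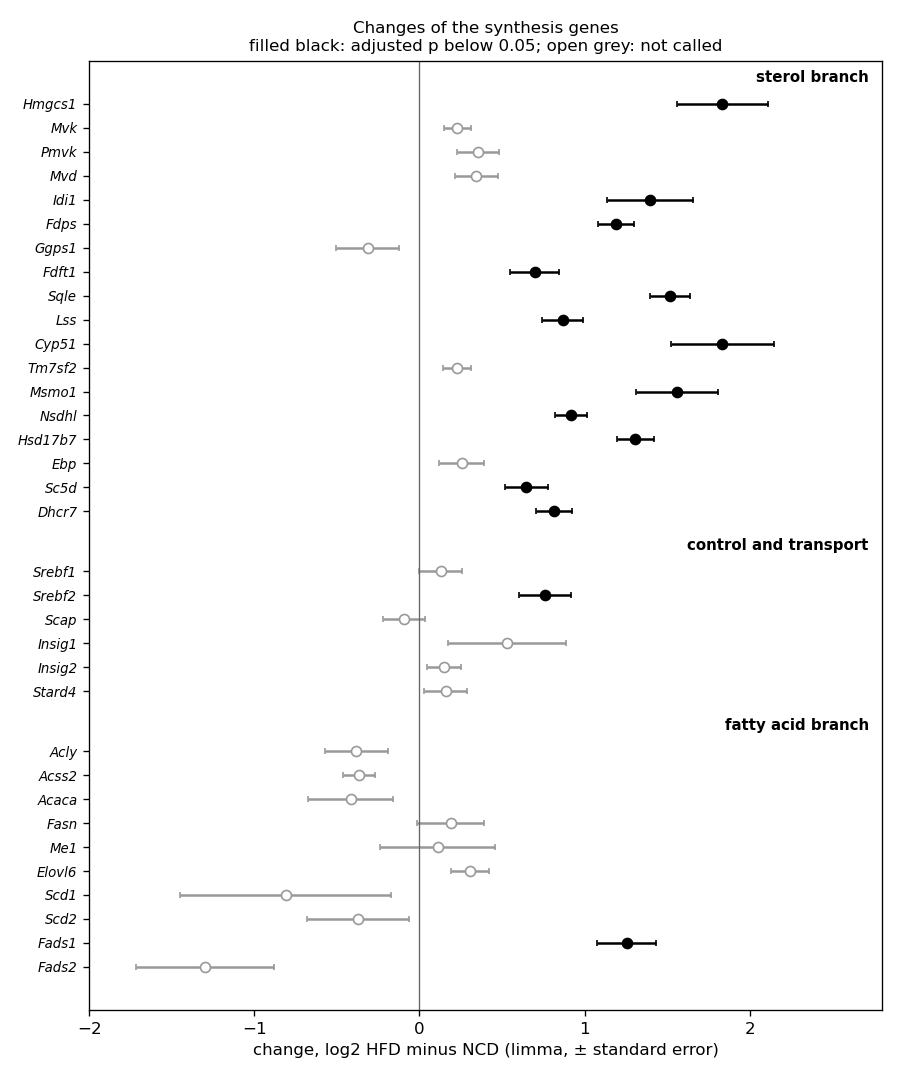
Change of each gene, log2 HFD minus NCD, with limma's standard error; filled black points passed an adjusted p of 0.05 and open grey points did not. Of the sterol enzymes, 17 of 18 lie right of 0, while the fatty acid enzymes run from −1.30 (Fads2) to 1.25 (Fads1).

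Separation of the arrays gave a similar picture with no test. The 3 HFD arrays all lay above the 3 NCD arrays for 16 of 18 sterol enzymes, a pattern that 17.7% of all genes showed. The exceptions were Ggps1, which makes geranylgeranyl diphosphate at the branch towards prenylated proteins, and Ebp, a sterol isomerase. In the fatty acid branch the HFD arrays lay above in 2 genes (Fads1 and Elovl6) and below in 2 (Acss2 and Fads2), a pattern of 13.0% of all genes, and the groups overlapped in 6.

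**Figure D2:**
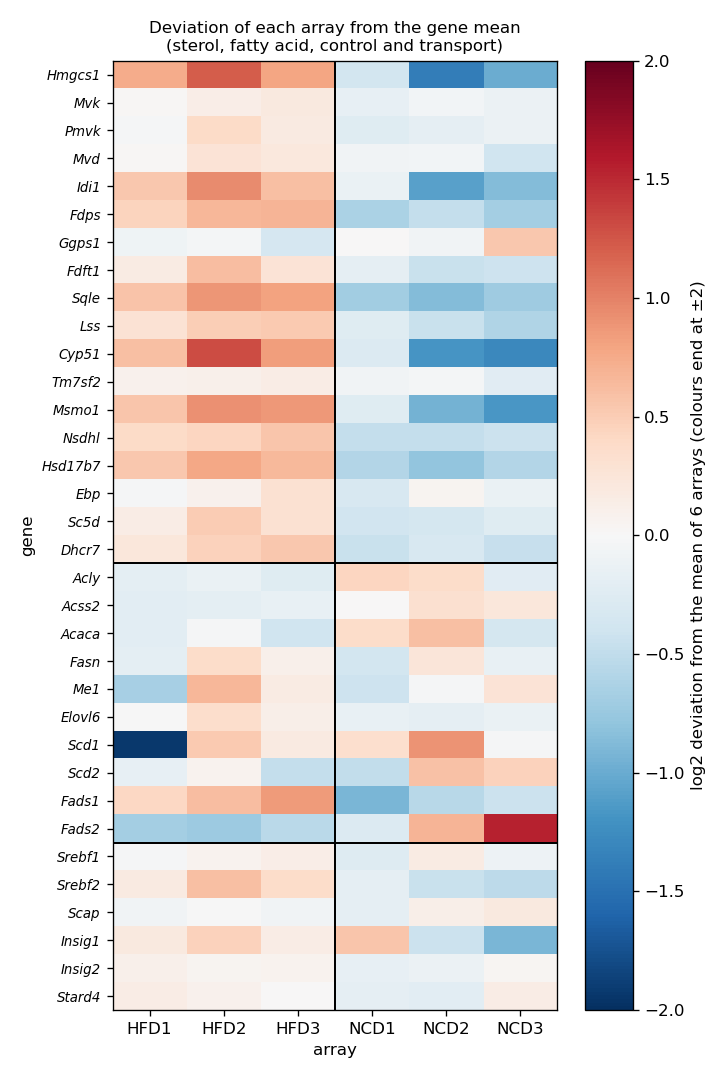
Deviation of each of the 34 genes (rows) from its own mean over the 6 arrays (columns), in log2 units; colours end at ±2. In most sterol rows the HFD columns are red and the NCD columns blue, with NCD1 palest in several rows, while the fatty acid rows vary within each diet, most in Scd1 on HFD1 and Fads2 on NCD3.

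At the start of the sterol branch, Hmgcs1, the cytosolic HMG-CoA synthase, was measured at 13.28, 13.75 and 13.33 on HFD1 to HFD3, against 12.17, 11.15 and 11.55 on NCD1 to NCD3 (log2 expression). It rose 3.56-fold (1.83 ± 0.28, standard error, adjusted p = 0.0152). All HFD arrays lay above all NCD arrays, and NCD1 was the nearest of the NCD arrays.

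The next 3 enzymes, which turn mevalonate into isopentenyl diphosphate, had small changes and were not called. The mevalonate kinase Mvk was at 0.23 ± 0.08 (adjusted p = 0.154), the phosphomevalonate kinase Pmvk at 0.35 ± 0.13 (adjusted p = 0.145) and the decarboxylase Mvd at 0.35 ± 0.13 (adjusted p = 0.162). In each of them the HFD arrays lay above the NCD arrays. Mvk was dim, with means of 6.79 in HFD and 6.57 in NCD arrays, close to the background level.

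Of the 3 prenyl steps that follow 2 rose. Idi1, the isomerase of isopentenyl diphosphate, had 10.42, 10.83 and 10.48 on the HFD arrays and 9.74, 8.79 and 9.01 on the NCD arrays, and rose 2.63-fold (1.39 ± 0.26, adjusted p = 0.0279). Fdps, the farnesyl diphosphate synthase, had 8.36, 8.57 and 8.60 on the HFD arrays and 7.28, 7.45 and 7.23 on the NCD arrays, and rose 2.28-fold (1.19 ± 0.11, adjusted p = 0.00470). Both had separate groups, with NCD1 nearest the HFD arrays in Idi1 and no such array in Fdps. Ggps1, which leads away from sterols, had 10.21, 10.25 and 9.95 on the HFD arrays and 10.30, 10.23 and 10.84 on the NCD arrays. Its groups overlapped, and at −0.31 ± 0.19 (adjusted p = 0.380) it was the 1 sterol-branch enzyme below 0.

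All 3 enzymes that make squalene and lanosterol rose. Fdft1, the squalene synthase, had 8.62, 9.07 and 8.73 on the HFD arrays and 8.27, 8.01 and 8.04 on the NCD arrays (0.70 ± 0.15, 1.62-fold, adjusted p = 0.0409). Sqle, the squalene epoxidase, had 9.46, 9.77 and 9.69 on the HFD arrays and 8.18, 8.01 and 8.17 on the NCD arrays, and rose 2.86-fold (1.52 ± 0.12, adjusted p = 0.00295). Lss, the lanosterol synthase, had 7.57, 7.77 and 7.79 on the HFD arrays and 7.03, 6.83 and 6.67 on the NCD arrays (0.87 ± 0.12, 1.82-fold, adjusted p = 0.0131). The groups did not overlap in any of the 3, and the lowest HFD array was HFD1 in each.

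Of the 8 enzymes that turn lanosterol into cholesterol 6 rose. Cyp51, the lanosterol demethylase, had 10.00, 10.70 and 10.23 on the HFD arrays and 9.12, 8.21 and 8.10 on the NCD arrays, and rose 3.56-fold (1.83 ± 0.31, adjusted p = 0.0214). Msmo1, the C4 methyl oxidase, had 9.31, 9.67 and 9.61 on the HFD arrays and 8.52, 7.81 and 7.59 on the NCD arrays, and rose 2.95-fold (1.56 ± 0.25, adjusted p = 0.0179). In both genes NCD1 stood above the other NCD arrays but below every HFD array. Nsdhl, which acts after Msmo1 in removing the C4 methyl groups, had 9.45, 9.49 and 9.62 on the HFD arrays and 8.60, 8.59 and 8.63 on the NCD arrays, with little spread within either diet. Hsd17b7, the ketoreductase of the same step, had 8.28, 8.53 and 8.40 on the HFD arrays and 7.17, 6.96 and 7.17 on the NCD arrays. Nsdhl rose 1.89-fold (adjusted p = 0.00681) and Hsd17b7 2.47-fold (adjusted p = 0.00355).

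Among the other enzymes from lanosterol to cholesterol, Sc5d and Dhcr7 rose, and Tm7sf2 and Ebp were not called. Sc5d, the sterol C5 desaturase, had 10.81, 11.17 and 10.97 on the HFD arrays and 10.28, 10.31 and 10.42 on the NCD arrays, and rose 1.56-fold (0.65 ± 0.13, adjusted p = 0.0346). Dhcr7, which reduces 7-dehydrocholesterol to cholesterol, had 7.70, 7.93 and 8.002 on the HFD arrays and 7.02, 7.15 and 7.01 on the NCD arrays, and rose 1.76-fold (0.82 ± 0.11, adjusted p = 0.0114). Neither gene had overlapping groups. The C14 reductase Tm7sf2 was at 0.23 ± 0.09 (adjusted p = 0.174) and Ebp at 0.26 ± 0.14 (adjusted p = 0.318). The row of Tm7sf2 also carries the symbol of Vps51, so signal of these 2 genes could not be told apart.

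Of the 12 sterol enzymes called, Fdps, Sqle, Nsdhl and Hsd17b7 were called without each array in turn, and Dhcr7 without each except HFD2 and HFD3. Hmgcs1, Lss, Cyp51 and Msmo1 were not called without HFD2, HFD3 or NCD2, and Idi1, Fdft1 and Sc5d were called in fits without 1 array only when NCD1 was the array left out. Their changes kept their direction in every such fit: Hmgcs1 ran from 1.60 to 2.11 and Cyp51 from 1.64 to 2.16. Hmgcs1 was at 1.28 and Cyp51 at 1.06 with the endothelial marker score as a covariate, and neither was called there.

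**Figure D3:**
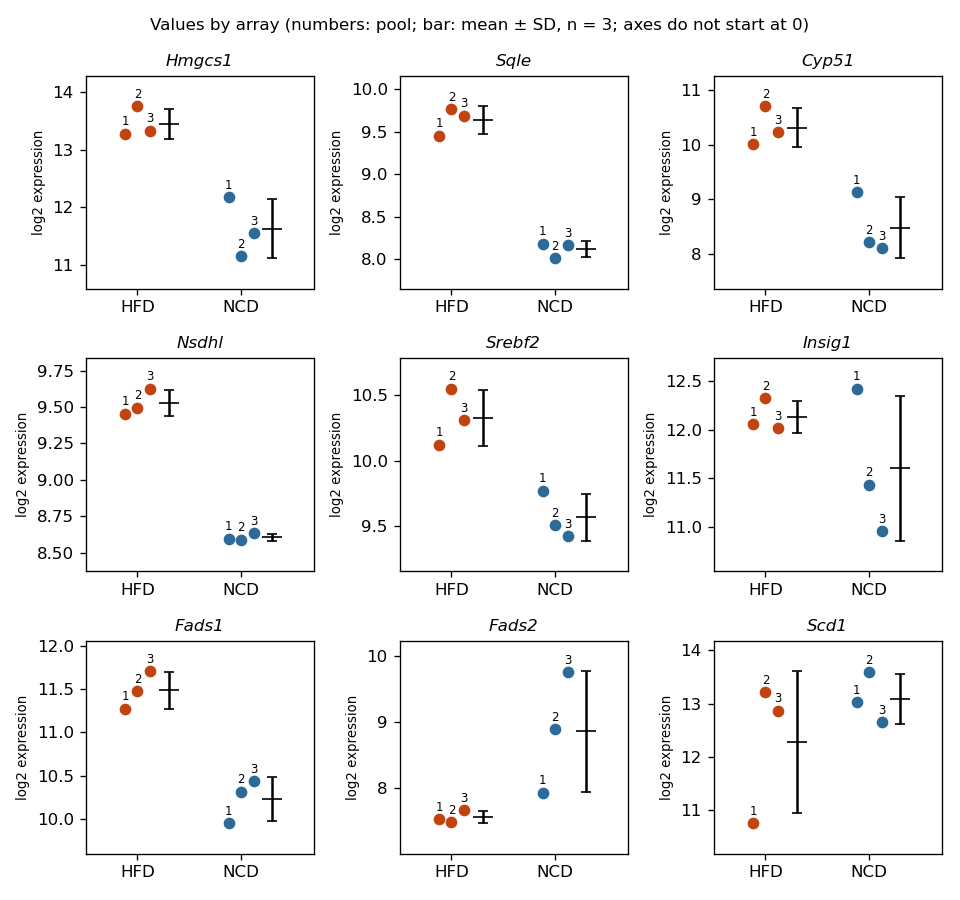
Log2 expression of 9 genes on each array, HFD left and NCD right; digits give the pool, and bars the mean ± SD (n = 3). Hmgcs1, Sqle, Cyp51, Nsdhl, Srebf2 and Fads1 have separate groups with HFD higher, Fads2 has separate groups with HFD lower, and the groups overlap in Insig1 and in Scd1, where HFD1 stands at 10.76 below all other arrays.

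Among the genes that control both branches, 1 of 6 was called. Srebf2, which encodes SREBP-2, had 10.12, 10.55 and 10.31 on the HFD arrays and 9.77, 9.51 and 9.43 on the NCD arrays. It rose 1.69-fold (0.76 ± 0.16, adjusted p = 0.0370), with no overlap, and it was called in fits without 1 array only when that array was NCD1. With the endothelial marker score as a covariate the Srebf2 change was 0.45 (adjusted p = 0.268), and with the adipocyte score 0.77 (adjusted p = 0.144). The Srebf2 call was also lost when all array rows were tested (adjusted p = 0.0612). Srebf1, which encodes SREBP-1a and SREBP-1c, had 7.56, 7.65 and 7.71 on the HFD arrays and 7.32, 7.74 and 7.48 on the NCD arrays, and NCD2 lay above all HFD arrays (0.13 ± 0.13, adjusted p = 0.620). The row of Srebf1 also carries the microRNA symbol Mir6922 and does not part the SREBP-1 forms.

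The difference between these 2 genes on the same array, Srebf1 minus Srebf2, was −2.69 ± 0.19 in HFD and −2.06 ± 0.35 in NCD arrays (SD, n = 3 each; exact permutation test, two-sided p = 0.1, 0.2 after adjustment over 4 pairs). That is the smallest p that 3 arrays against 3 can give, so this test could not pass 0.05. The diets did not overlap in this difference, which was −0.63 between them. Scap, the sterol-sensing escort, was at −0.09 ± 0.13 (adjusted p = 0.727).

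Insig1 and Insig2, which hold the SCAP complex in the endoplasmic reticulum, were not called. Insig1, itself a classic SREBP target, had 12.06, 12.32 and 12.01 on the HFD arrays and 12.42, 11.43 and 10.96 on the NCD arrays. NCD1 was the highest of all 6 arrays in Insig1, whereas it lay below every HFD array in 17 of 18 sterol enzymes. The Insig1 change was 0.53 ± 0.36 (adjusted p = 0.435); it was 0.94 and called without NCD1 (adjusted p = 0.0233), and −0.30 with the endothelial marker score as a covariate (adjusted p = 0.759). Insig2 was at 0.15 ± 0.10 (adjusted p = 0.441), and Insig1 minus Insig2 averaged 2.59 ± 0.18 in HFD and 2.21 ± 0.84 in NCD arrays (exact permutation test, two-sided p = 0.5, 0.667 adjusted). Stard4, a carrier of cholesterol between membranes, was at 0.16 ± 0.13 (adjusted p = 0.527), with NCD3 level with the highest HFD array.

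In the fatty acid branch the enzymes that supply and join acetyl units were not called. Acly, the ATP citrate lyase, had 11.81, 11.87 and 11.75 on the HFD arrays and 12.43, 12.37 and 11.78 on the NCD arrays (−0.38 ± 0.19, adjusted p = 0.282). Acaca, the acetyl-CoA carboxylase that commits carbon to fatty acids, had 10.12, 10.30 and 9.93 on the HFD arrays and 10.69, 10.93 and 9.97 on the NCD arrays (−0.42 ± 0.26, adjusted p = 0.386). In both genes NCD1 and NCD2 lay above all HFD arrays and NCD3 lay among them; without NCD3, Acly was at −0.59 and was called. Fasn, the fatty acid synthase, had 7.71, 8.27 and 8.01 on the HFD arrays and 7.53, 8.14 and 7.75 on the NCD arrays, and the groups overlapped throughout (0.19 ± 0.20, adjusted p = 0.646).

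Acss2, the cytosolic acetyl-CoA synthetase and a known SREBP target, lay lower on every HFD array (6.51, 6.52 and 6.56) than on any NCD array (6.73, 7.03 and 6.94). It was not called (−0.37 ± 0.10, adjusted p = 0.0755), and it was dim, not far above the background level. Me1, the malic enzyme that yields NADPH, ranged from 8.59 to 9.91 over the HFD arrays and from 8.83 to 9.52 over the NCD arrays (0.11 ± 0.35, adjusted p = 0.890). Elovl6, the elongase of saturated fatty acids, had HFD arrays above NCD arrays and was at 0.31 ± 0.11 (adjusted p = 0.160).

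Among the desaturases Fads1 alone was called. Fads1, the delta-5 desaturase of polyunsaturated fatty acids, had 11.28, 11.48 and 11.71 on the HFD arrays and 9.95, 10.31 and 10.44 on the NCD arrays, and rose 2.39-fold (1.25 ± 0.18, adjusted p = 0.0130). Fads2, the delta-6 desaturase that acts before it, had 7.53, 7.49 and 7.66 on the HFD arrays and 7.93, 8.89 and 9.75 on the NCD arrays. The groups of Fads2 did not overlap, but the NCD arrays were far apart, and it was not called (−1.30 ± 0.42, adjusted p = 0.117). It was called lower without NCD1 (−1.76, adjusted p = 0.00997) and with array weights (−1.35, adjusted p = 0.0302), and ran from −0.85 to −1.76 in fits without 1 array. A second row of Fads2 gave 7.07, 7.02 and 6.94 on the HFD arrays and 7.46, 8.72 and 9.19 on the NCD arrays.

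Fads1 minus Fads2 averaged 3.93 ± 0.16 in HFD and 1.38 ± 0.67 in NCD arrays, a difference of 2.55 between the diets with no overlap (exact permutation test, two-sided p = 0.1, the smallest possible, and 0.2 adjusted over 4 pairs). It ran from 2.21 to 2.88 in fits without 1 array. The Fads1 call itself was lost without HFD2, HFD3 or NCD2, at changes of 1.11 to 1.36 over all such fits. The level of Fads2 was highest on NCD2 and NCD3, where endothelial markers were also highest: Cdh5, the vascular endothelial cadherin, had 15.39, 14.19 and 14.11 on the HFD arrays and 14.84, 16.52 and 16.79 on the NCD arrays. Over the HFD arrays Cdh5 was highest on HFD1, as was the second row of Fads2, while its first row was highest on HFD3. With the endothelial marker score as a covariate the changes were −0.39 for Fads2 (adjusted p = 0.758) and 1.39 for Fads1 (adjusted p = 0.0579).

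Scd1, the stearoyl-CoA desaturase that makes oleate, had 10.76, 13.21 and 12.87 on the HFD arrays and 13.03, 13.59 and 12.66 on the NCD arrays. HFD1 lay far below the other 5 arrays, and a second row of Scd1 showed the same, with 6.93, 9.19 and 9.03 on the HFD arrays and 8.63, 9.29 and 8.12 on the NCD arrays. The Scd1 change was −0.81 ± 0.64 (adjusted p = 0.509) with all arrays and −0.05 without HFD1. Adipocyte transcripts were low on the same array: Cidec, a lipid droplet protein, had 6.63, 9.72 and 9.24 on the HFD arrays and 7.88, 9.16 and 8.15 on the NCD arrays, and Adipoq, the adiponectin gene, had 6.73, 8.02 and 8.23 on the HFD arrays and 8.02, 8.74 and 8.19 on the NCD arrays.

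Cidec and Adipoq were chosen after their values were seen. Plin1, Pck1, Retn, Adig, Dgat2 and Plin4 were also lowest on HFD1, though Adig lay below background on every array. Lep, Lipe and Slc2a4 were not lowest there. The adipocyte markers with the highest levels did not share that pattern: Fabp4, a fatty acid carrier also made by macrophages and endothelium, had 17.54, 16.81 and 16.79 on the HFD arrays and 17.31, 18.25 and 18.59 on the NCD arrays, and Aqp7 and Pnpla2 were not lowest on HFD1 either. With the adipocyte marker score as a covariate the Scd1 change was −0.03 (adjusted p = 0.986), and with the endothelial score it was −1.77 (adjusted p = 0.393). Scd2, the desaturase isoform made widely outside liver and fat, had 10.93, 11.17 and 10.62 on the HFD arrays and 10.60, 11.69 and 11.56 on the NCD arrays (−0.37 ± 0.31, adjusted p = 0.535). Scd1 minus Scd2 averaged 1.37 ± 1.34 in HFD and 1.81 ± 0.67 in NCD arrays (exact permutation test, two-sided p = 0.7, adjusted 0.7), and the row of Scd2 also carries Mir5114.

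**Figure D4:**
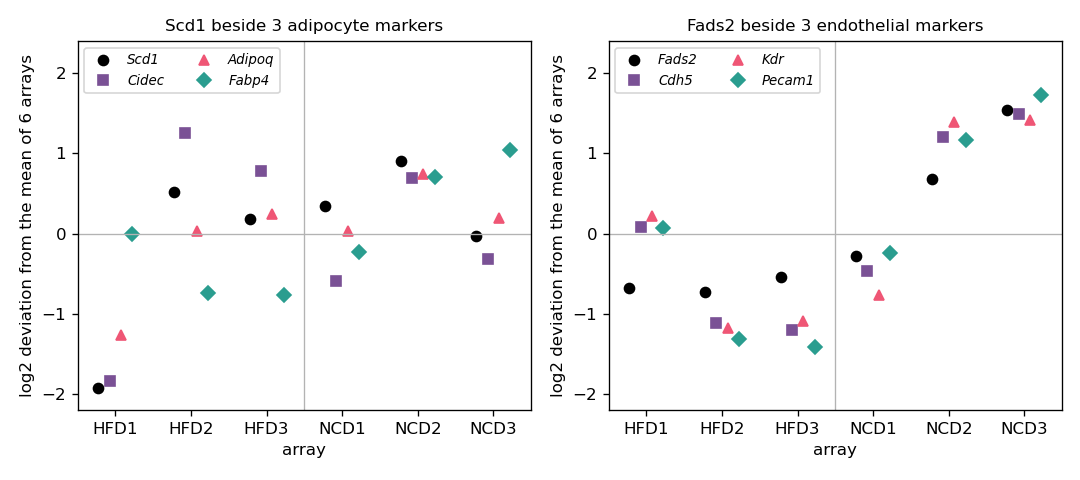
Deviation from the mean of 6 arrays (log2) of Scd1 beside the adipocyte markers Cidec, Adipoq and Fabp4 (left), and of Fads2 beside the endothelial markers Cdh5, Kdr and Pecam1 (right), on each array. Scd1, Cidec and Adipoq are lowest on HFD1 and Fabp4 is not, and Fads2 and the endothelial markers are highest on NCD2 and NCD3.

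The branches were set against each other within each array, as the mean deviation of their genes from each gene's mean over the 6 arrays. The sterol branch stood at 0.29, 0.56 and 0.45 on HFD1 to HFD3 and at −0.31, −0.51 and −0.49 on NCD1 to NCD3. The fatty acid branch stood at −0.38, 0.15 and −0.04 on the HFD arrays and at −0.15, 0.30 and 0.12 on the NCD arrays. The sterol means of the diets were separate and the fatty acid means overlapped. The gap, sterol minus fatty acid, was 0.67, 0.41 and 0.49 on the HFD arrays and −0.16, −0.80 and −0.61 on the NCD arrays, a mean of 0.52 ± 0.13 in HFD and −0.52 ± 0.33 in NCD (SD, n = 3 each). The gap differed by 1.05 between the diets, and by 0.91 to 1.23 in fits without 1 array; it is given with no test, because the genes were chosen with earlier results known.

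**Figure D5:**
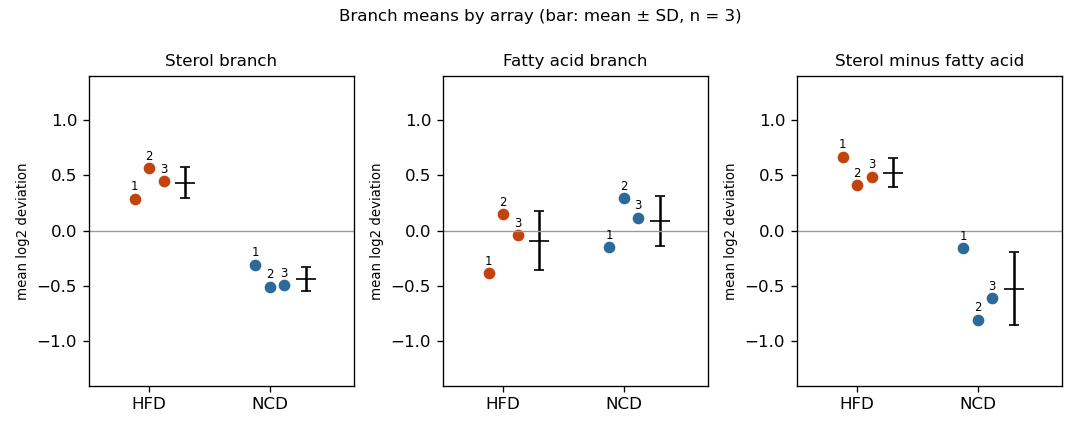
Mean log2 deviation of the sterol branch (18 genes), of the fatty acid branch (10 genes) and their difference on each array; digits give the pool and bars the mean ± SD (n = 3). HFD and NCD arrays are separate for the sterol branch and for the difference, and overlap for the fatty acid branch, where HFD1 is lowest at −0.38.

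Over the HFD arrays the order was the same in both branches, with HFD2 highest and HFD1 lowest, and over the NCD arrays it differed. The gap of HFD1 was nevertheless the largest because its fatty acid mean was lower still. Among the NCD arrays, NCD1 was highest in the sterol branch and lowest in the fatty acid branch.

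Cell cycle markers differed between the diets in the same direction as the sterol branch. Within each diet, the order of the arrays by mean level was not that of the sterol branch. All 11 measured cell cycle markers were called higher, with a median of 1.66, and their mean level was 10.33 to 10.87 over the HFD arrays and 8.44 to 9.17 over the NCD arrays; Pcna, the replication clamp, averaged 13.69 ± 0.10 in HFD and 12.68 ± 0.34 in NCD arrays, Mki67 13.77 ± 0.38 in HFD and 11.41 ± 0.89 in NCD arrays, and Top2a 11.52 ± 0.38 in HFD and 9.25 ± 0.54 in NCD arrays. The part of dividing cells in the sterol values was not tested. With the endothelial marker score as a covariate 5 of 18 sterol enzymes were called (Fdps, Sqle, Msmo1, Nsdhl and Hsd17b7; median 0.67), and with the adipocyte score 5 (Fdps, Sqle, Nsdhl, Hsd17b7 and Dhcr7; median 0.89). The fatty acid median was −0.10 with the endothelial score and −0.05 with the adipocyte score.

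Other genes of sterol handling, from a list of 35 of which 24 were measured, had 3 higher, 2 lower and 19 not called, with a median of 0.14. The 3 higher were 12.5%, against 4.96% of all genes and 11.9% of genes at or above the background level. Tmem97, a sterol-regulated binding partner of the lysosomal cholesterol transporter, had 8.48, 8.94 and 9.41 on the HFD arrays and 7.83, 7.69 and 7.63 on the NCD arrays (1.23 ± 0.23, adjusted p = 0.0280). Npc1, that transporter, had 12.55, 12.72 and 12.91 on the HFD arrays and 11.81, 11.61 and 11.30 on the NCD arrays (1.15 ± 0.17, adjusted p = 0.0142). Nr1h3, the liver X receptor alpha, had 9.43, 9.77 and 9.72 on the HFD arrays and 8.60, 8.83 and 8.75 on the NCD arrays (0.91 ± 0.13, adjusted p = 0.0139). In all 3 the HFD arrays lay above the NCD arrays.

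Those that fell were Lbr and Rnf145. Lbr, a nuclear envelope protein that shares the C14 reductase step with Tm7sf2, had 12.21, 12.18 and 12.15 on the HFD arrays and 13.04, 13.02 and 13.43 on the NCD arrays (−0.99 ± 0.14, adjusted p = 0.0138). Rnf145, a ubiquitin ligase of sterol control, had 9.38, 9.34 and 9.25 on the HFD arrays and 9.83, 9.81 and 9.80 on the NCD arrays (−0.49 ± 0.10, adjusted p = 0.0323). Their HFD arrays lay below all NCD arrays with little spread.

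Other genes of fatty acid synthesis, from a list of 41 of which 38 were measured, had 2 higher, 1 lower and 35 not called, with a median of 0.09. The 2 higher were 5.26%, close to the 4.96% of all genes called higher, and 10 of the 38 had a mean below background. Hsd17b12, the ketoreductase of fatty acid elongation, had 12.41, 12.57 and 12.67 on the HFD arrays and 11.75, 11.06 and 11.33 on the NCD arrays (1.17 ± 0.19, adjusted p = 0.0191). Pgd, which yields NADPH in the pentose phosphate pathway, had 11.80, 11.81 and 11.81 on the HFD arrays and 11.15, 10.83 and 10.67 on the NCD arrays (0.92 ± 0.15, adjusted p = 0.0175). Both rose with separate groups. Elovl5, the elongase that acts between Fads2 and Fads1 on polyunsaturated fatty acids, fell by 0.84 (adjusted p = 0.0255), with 14.14, 13.90 and 13.83 on the HFD arrays and 14.57, 14.80 and 15.02 on the NCD arrays. Mlxipl, which encodes the carbohydrate-responsive factor ChREBP, was at −0.13 ± 0.23 (adjusted p = 0.793). None of the 8 called genes of these lists was called without HFD2 or HFD3.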

How the data were processed

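The authors deposited log2 values, 1 for each transcript cluster and array, made with RMA per the submitters' processing notes, which also name Affymetrix Expression Console 1.4.1.46 and Transcriptome Analysis Console 3.1.0.5. Options, library files and the part of each tool are not stated; the genome build is not given in the sources used here. Values reached 19.5, above a scanner's 16-bit range, so a further transformation of the signal by the authors is possible and log2 changes may not equal RNA ratios. Arrays have no read depth; the number of arrays limits the precision (median standard error of a change 0.118).

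From 65956 clusters, left after 6732 control probe sets, 1 row per gene was kept (30146 genes), each gene's row with the highest mean. Rows needed 1 symbol, except for 4 of the 34 genes described here (Msmo1 with its older symbol, Srebf1, Scd2 and Tm7sf2). Symbols followed the array's old annotation, updated by Entrez identifier. Genes with close copies, such as Scd1 and Scd2, may share probe signal, which was not tested. The background level is the mean over arrays of the 95th percentile of 23 antigenomic probe sets.

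The diets were compared with limma 3.58.1 in R 4.3.3 (lmFit, eBayes with a mean-variance trend), two-sided, with Benjamini-Hochberg adjustment over all 30146 genes and a call below 0.05. Paralogue differences were tested by exact permutation over arrays (scipy 1.17.1), and figures were drawn with matplotlib 3.10.9. The gene test was checked on simulated data. The alternatives varied the variance model, scaling, filter on dim genes, rows, covariates and arrays used. The genes, branches, lists and motifs were chosen with earlier results of these data known. All 34 genes were to be named, and of the other pathway genes those called and some fixed by name, of which Nr1h3 and Mlxipl are reported; of marker lists, the 3 genes with the highest mean, or the list's counts alone. The other macrophage, adipocyte and fibroblast markers named, Cidec and Adipoq included, were chosen after their values were seen. The gender, strain, age and diet come from the labels, and replicates are separate pools.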

Additional observations from a re-analysis of the deposited data

How the results depend on the processing

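Sterol enzymes called higher numbered 10 to 12 of 18 under the other variance model, array weights, scalings, filters on dim genes and most choices of rows. With only rows of 1 symbol they numbered 11 out of fewer than 18, because Msmo1 and Tm7sf2 had no such row. They numbered 5 with the endothelial and 5 with the adipocyte covariate, and 4 to 12 without 1 array. Sterol enzymes called lower were 0 in every fit. Fatty acid enzymes called higher were 0 with the endothelial covariate and 0 to 1 without 1 array; those called lower were 2 with array weights (Acss2 and Fads2) and 0 to 3 without 1 array. Genes called in the whole table were 4283 with array weights, 608 with the endothelial and 311 with the adipocyte covariate, and 442 to 4716 without 1 array. Fits without 1 array and with a covariate have fewer residual degrees of freedom, so calls can be lost there even where the difference is kept. With the endothelial covariate, however, every sterol enzyme called in the main fit had a smaller change. Cyp51 went from 1.83 to 1.06, Hmgcs1 from 1.83 to 1.28, Idi1 from 1.39 to 0.83 and Sc5d from 0.65 to 0.61. With the adipocyte covariate their changes went both ways, with Hmgcs1 at 1.63 and Dhcr7 at 0.92, against 0.82 in the main fit. The gap between branches, 1.05, ran from 0.91 to 1.23 without 1 array. It was smaller with the endothelial covariate (0.83), with the adipocyte covariate (0.80) and with medians over genes in place of means (0.83). Median centring put the median change of all genes at 0.10, against 0.01, and ended 1 call (Rnf145, −0.40, adjusted p = 0.0517), while 0 of the 34 genes and of the other pathway genes named changed direction under median centring or quantile normalization. Of 64 marker genes 2 did, with median centring: Lyz2 (0.025, against −0.065) and Adig (0.0008, against −0.089), neither called.

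Some differences that were not called changed direction, and the cause was not tested. Insig1 minus Insig2 (0.38) was −0.55 with the endothelial covariate and −0.0057 to 0.83 without 1 array, and Scd1 minus Scd2 (−0.44) was 0.028 with the adipocyte covariate and −0.87 to 0.33 without 1 array. With the endothelial covariate Insig1 was at −0.30, Scap at 0.11 and Scd2 at 0.25, and Scap was at 0.012 with the adipocyte covariate. Me1 was at −0.19 without HFD2 and −0.069 without NCD1 (−0.19 to 0.47 without 1 array), and Mlxipl at 0.087 without NCD2 (−0.39 to 0.087).

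The labels give no pairing of the pools beyond the shared replicate numbers. Deviations of same-numbered HFD and NCD arrays from their diet means correlated at −0.46, −0.12 and −0.15 over genes. With 3 arrays per diet, these values cannot tell whether same-numbered pools shared a day or batch. With the replicate number as a block, 144 genes, 0 sterol and 0 fatty acid enzymes were called, with 2 residual degrees of freedom and unchanged differences between diets.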
